A study of Mus musculus with 24 samples.

Results

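Glucocorticoid-responsive genes were followed in plantaris, a fast hindlimb muscle, of wild-type C57BL/6 mice. The set holds the glucocorticoid receptor gene Nr3c1 and 9 genes known as its targets, namely Fkbp5, Tsc22d3, Klf9, Klf15, Zbtb16, Sgk1, Cebpb, Cebpd and Ddit4. Members were the rows of the deposited count table whose mouse symbol is 1 of these 10, and all 10 were present among the 47643 genes of the table. The animals either breathed normal air (11 samples) or were exposed to tobacco smoke for 16 weeks (13 samples). No transgene, deletion or drug was named for either group. Transcripts were measured by 3′-end RNA sequencing of whole muscle, in which a transcript gives reads near its poly(A) tail, so that counts do not scale with transcript length and levels are not compared between genes. Values below are CPM, in which every library counts as having the same total, with libraries scaled by the trimmed mean of M-values (TMM), and log2 fold changes are smoke minus air, so that a positive value is higher in smoke.

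Glucocorticoids are adrenal steroid hormones that enter the cell and bind a receptor held in the cytoplasm by heat shock proteins and co-chaperones. The loaded receptor moves to the nucleus, where it binds palindromic DNA elements and induces one set of genes while repressing inflammatory genes. In skeletal muscle the induced set includes transcription factors and signalling proteins that slow protein synthesis and raise amino acid breakdown, and hormone secretion follows the daily clock.

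The promoter windows below are shown because they hold the DNA letters to which the later results refer. RefSeq promoter windows (250 bases before to 50 bases after an annotated start, build GRCm38.p6) were found for 7 of the 10 genes, in 14 windows. Nr3c1, Zbtb16 and Cebpd had no entry in the table. Capitals mark the letters of a receptor palindrome (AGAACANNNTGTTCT), of its half-site TGTTCT or of the E-box CACGTG that clock factors can bind, searched on both strands. The first is 1 of 6 windows of Sgk1 (chr10:21993640-21993939, plus strand), the second is the window of Klf15 (chr6:90462326-90462625, plus strand), and the last is 1 of 3 windows of Tsc22d3 (chrX:140600473-140600772, minus strand).

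Sgk1: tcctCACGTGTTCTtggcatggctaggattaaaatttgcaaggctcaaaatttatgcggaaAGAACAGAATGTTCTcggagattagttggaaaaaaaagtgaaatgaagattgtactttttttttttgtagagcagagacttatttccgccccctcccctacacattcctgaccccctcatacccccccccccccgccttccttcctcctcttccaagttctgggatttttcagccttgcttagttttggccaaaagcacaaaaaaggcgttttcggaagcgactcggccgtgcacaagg

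Klf15: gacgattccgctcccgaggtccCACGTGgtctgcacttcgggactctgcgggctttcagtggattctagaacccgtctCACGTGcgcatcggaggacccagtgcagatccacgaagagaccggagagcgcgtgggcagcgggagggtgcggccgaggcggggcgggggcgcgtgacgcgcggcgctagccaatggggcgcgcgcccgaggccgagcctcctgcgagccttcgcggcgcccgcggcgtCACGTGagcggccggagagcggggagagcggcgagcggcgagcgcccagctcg

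Tsc22d3: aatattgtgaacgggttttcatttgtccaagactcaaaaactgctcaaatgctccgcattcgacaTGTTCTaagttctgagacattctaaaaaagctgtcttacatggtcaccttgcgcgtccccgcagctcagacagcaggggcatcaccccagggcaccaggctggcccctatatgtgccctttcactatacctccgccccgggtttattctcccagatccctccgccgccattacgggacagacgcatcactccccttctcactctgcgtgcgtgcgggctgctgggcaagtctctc

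The palindrome occurred in 3 of 32851 windows of all genes (0.00913%), and 1 of these was the Sgk1 window, where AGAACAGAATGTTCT begins 189 bases before the start. Near its 5′ end the same window holds an E-box that overlaps a half-site, printed as 1 run of capitals. At least 1 half-site, those within the palindrome included, was in 4 of the 14 windows of the members (28.6%) and in 19.0% of all windows. All 4 belong to Sgk1 or Tsc22d3, which have 6 and 3 of the 14 windows, so that these windows are not separate genes. The Klf15 window holds 3 E-boxes, at 228, 172 and 3 bases before the start, and 3 or more occurred in 29 of all windows (0.0883%). An E-box was in 3 of the 14 member windows (21.4%) and in 7.15% of all windows. A match describes letters in a window, and 3′-end reads do not show which start was used in these muscles.

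Total counts per sample ranged from 2515697 to 4528845, and a floor of 3 counts stood at 0.662 to 1.19 CPM before TMM scaling, which covers counting error only. All 10 genes passed the filter that left 10159 genes to be tested, and their counts per sample ran from 5 (Klf15) to 1170 (Klf9). All 10 marker genes of skeletal muscle fibres were tested and together took 17.4 to 27.0% of the scaled counts in air and 18.3 to 23.3% in smoke. Haemoglobin and other blood genes summed to a median of 765 CPM in air and 558 in smoke, with 3 of 5 called lower. Schwann cell genes summed to a median of 165 CPM in air and 243.3 in smoke, with 3 of 5 called higher. Of the endothelial (6 tested), macrophage (4), adipocyte (5), fibroblast (6) and neutrophil (2) markers, 0 were called by edgeR, with 2, 0, 2, 2 and 0 under an unadjusted 0.05. With a blood score, the mean log2 CPM of the 5 blood genes, as a covariate, 0 of the 10 members and 56 of all tested genes were called by edgeR, against 195 of all tested genes without it. The part of the other cell types was not tested. In whole muscle, fewer cells of a type and less RNA per cell cannot be told apart.

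Air replicate 5 stood apart in these genes, a fact seen after the values were examined. It was the highest of all 24 samples in 7 of the 10 (Nr3c1, Tsc22d3, Klf9, Sgk1, Cebpb, Cebpd and Ddit4), whereas no other sample was highest in more than 1. Over all tested genes it was the highest in 434 (4.27%). Air replicate 11 was the highest in a larger share of all tested genes (12.1%) and in 0 of the 10. Results that rest on air replicate 5 are therefore given with and without it, except in the fits with a covariate and where stated.

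**Figure D1:**
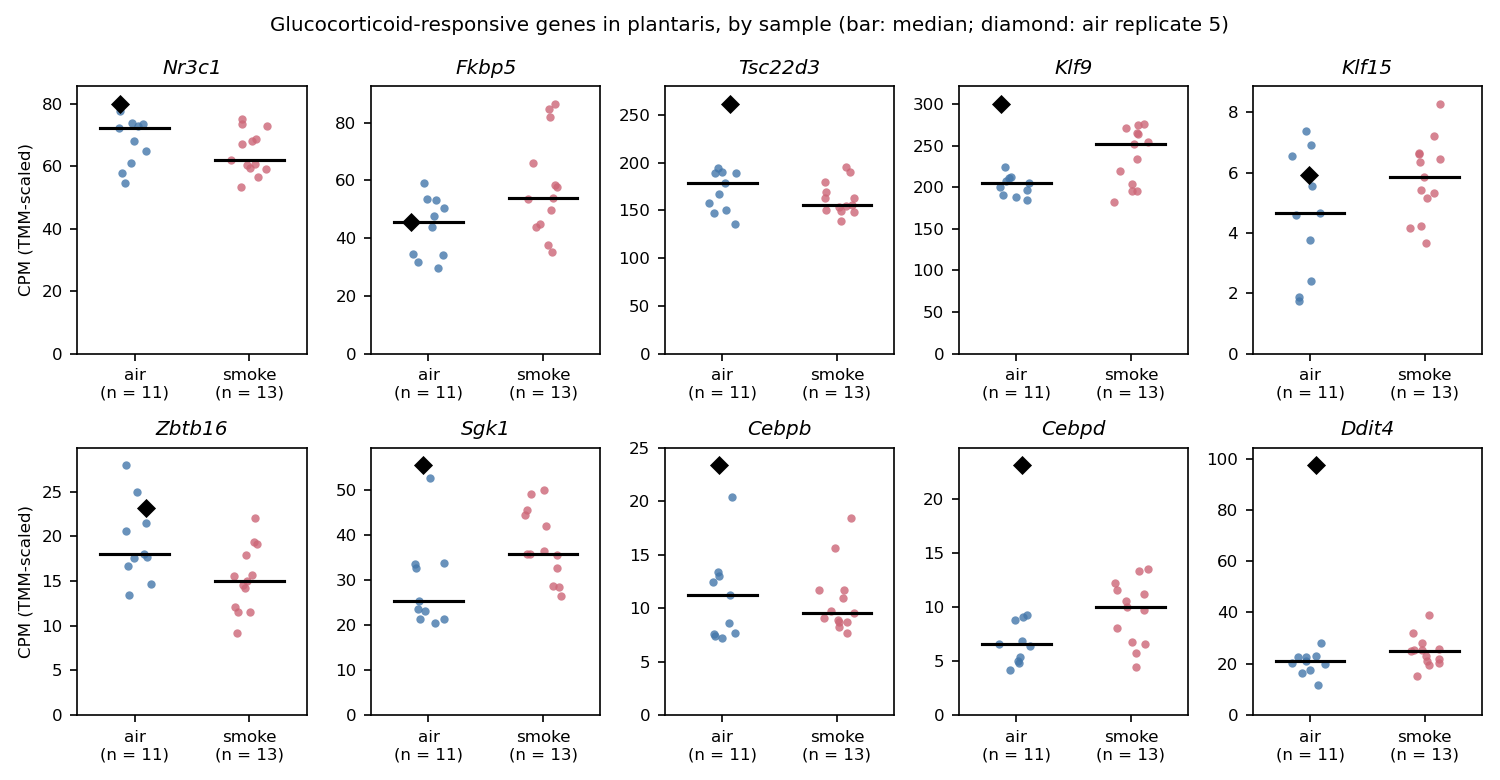
CPM of each of the 10 genes (vertical axes, each from 0) in 11 air and 13 smoke samples. Points are samples, bars are group medians and the diamond is air replicate 5, which lies at 97.5 CPM for Ddit4 while the other air samples lie between 11.7 and 28.02.

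None of the 10 genes was called between smoke and air. By edgeR's quasi-likelihood test with Benjamini-Hochberg adjustment over all tested genes, 0 of 10 members passed an adjusted p under 0.05, against 1.92% of all tested genes. DESeq2 and limma voom also called 0. At an unadjusted p under 0.05 there were 3 members (Fkbp5, Zbtb16 and Klf9) by edgeR and 4 each by DESeq2 and limma voom, against 15.5% of all tested genes by edgeR. The log2 fold change was positive for 5 members and negative for 5, with a median of 0.037 beside 0.0066 over all tested genes. Its median size was 0.21, beside 0.11 over all tested genes. In 0 of the 10 genes were the CPM ranges of the groups separate, against 0.0295% of all tested genes. The labels do not say whether the samples came from separate animals, so that p-values measure the spread between these samples.

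**Figure D2:**
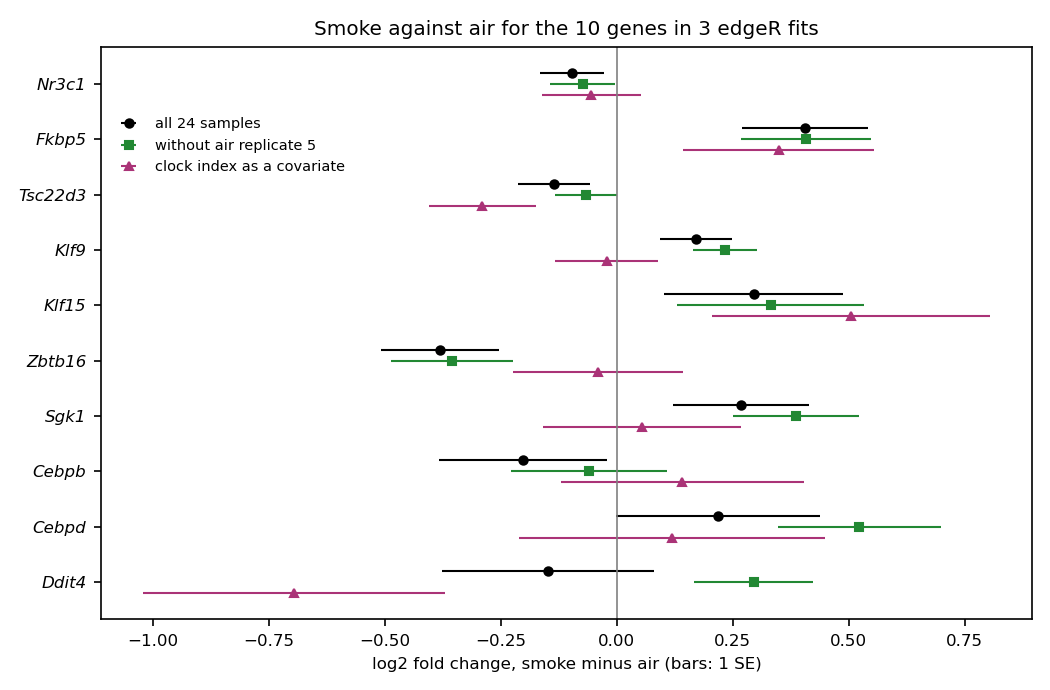
Log2 fold change of smoke against air (horizontal axis) for each gene, with bars of 1 standard error, in the fit of all 24 samples, the fit without air replicate 5 and the fit with a clock index as a covariate. Ddit4 moves from −0.15 to 0.30 when air replicate 5 is left out, and Zbtb16 from −0.38 to −0.040 with the clock index.

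The receptor itself, Nr3c1 (ENSMUSG00000024431), is the hormone-activated transcription factor of the pathway. Its level in air was lowest at 54.6, median 72.2 and highest at 80.0 CPM, and in smoke 53.4, 61.9 and 75.1 CPM. The ranges overlapped almost fully, with 10 of 13 smoke samples below the air median. Smoke differed from air by −0.096 on the log2 scale (SE 0.069, edgeR adjusted p = 0.547), with a 95% interval from −0.24 to 0.044. It was the steadiest of the 10, with a biological coefficient of variation (the spread between samples of a group beyond counting error) of 10.5%, beside a median of 14.9% over all tested genes.

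Fkbp5 (ENSMUSG00000024222) encodes a co-chaperone that the receptor induces and that lowers hormone binding in return. Its level was lowest at 29.6, median 45.5 and highest at 59.1 CPM in air, and 35.3, 53.8 and 86.6 CPM in smoke. Smoke replicates 7, 8 and 9 lay apart at 84.7, 82.1 and 86.6 CPM, and with replicate 5 at 66.1 CPM they made 4 of 13 smoke samples above the highest air sample. The other 9 smoke samples lay within the air range. Its log2 fold change of 0.40 was the largest in size among the 10 (SE 0.14, 95% interval 0.13 to 0.68) and did not pass the adjustment (edgeR adjusted p = 0.114). It was 0.41 without air replicate 5, in which Fkbp5 ranked 15th of the 24 samples. Fkbp5 overlaps 4 other annotated genes, 2 on each strand, and whether strand was used in counting is not given in the sources used here.

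Tsc22d3 (ENSMUSG00000031431) encodes GILZ, a leucine zipper protein through which glucocorticoids restrain inflammatory signalling. Its level was lowest at 136, median 179 and highest at 262 CPM in air, and 139, 155 and 195 CPM in smoke. The highest value belonged to air replicate 5, and the next air sample reached 194 CPM, so that the ranges without it nearly coincide. Its difference was −0.14 on the log2 scale (SE 0.078, edgeR adjusted p = 0.421) and −0.067 without that sample (edgeR adjusted p = 0.723). With the blood score as a covariate Tsc22d3 stood at −0.084 (edgeR adjusted p = 0.791).

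Among the transcription factors, Klf9 (ENSMUSG00000033863) is a Krüppel-like zinc finger protein under the control of the receptor and of the clock. Its level was lowest at 185, median 205 and highest at 301 CPM in air, and 182, 251.9 and 276 CPM in smoke. The 10 air samples other than replicate 5 lay between 185 and 224 CPM, and 9 of 13 smoke samples lay above the air median. The log2 fold change was 0.17 (SE 0.077, 95% interval 0.014 to 0.33, edgeR adjusted p = 0.263) and 0.23 without air replicate 5 (edgeR adjusted p = 0.0788), the smallest adjusted p of the 10 in that fit. The SD of its log2 CPM was 0.19 in air and 0.21 in smoke with all samples (permutation p = 0.851). Without air replicate 5 it was 0.087 in air (permutation p = 0.0167, adjusted p = 0.0834 over the 10 genes). Klf9 overlaps an annotated microRNA gene on its own strand.

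Klf15 (ENSMUSG00000030087), another Krüppel-like factor, drives amino acid breakdown in muscle. It was the least abundant in counts, with a lowest value of 1.74, a median of 4.67 and a highest of 7.38 CPM in air and 3.66, 5.86 and 8.29 CPM in smoke. Some air samples lay below every smoke sample and 10 of 13 smoke samples lay above the air median, but the log2 fold change of 0.30 (SE 0.19) did not pass the test (edgeR adjusted p = 0.499). With the blood score as a covariate Klf15 stood at 0.13 (edgeR adjusted p = 0.879). Its spread over samples, as the SD of log2 CPM, was 0.64 in air and 0.31 in smoke, a difference with a two-sided permutation p of 0.0189 and a Benjamini-Hochberg adjusted p of 0.189 over the 10 genes. Of the 10 genes, 0 passed this test of spread, and Klf15 alone was under 0.05 unadjusted with all samples.

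Zbtb16 (ENSMUSG00000066687) encodes PLZF, a zinc finger repressor that is a sensitive marker of glucocorticoid exposure in many tissues. Its level was lowest at 13.4, median 18.0 and highest at 28.0 CPM in air, and 9.17, 15.0 and 22.03 CPM in smoke. Here 4 smoke samples lay below the lowest air sample and 10 of 13 below the air median. For Zbtb16 the log2 fold change was −0.38 (SE 0.13, 95% interval −0.64 to −0.12, edgeR adjusted p = 0.114) and −0.36 without air replicate 5. Zbtb16 and Fkbp5 had the same adjusted p with opposite signs of the difference.

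Cebpb (ENSMUSG00000056501) and Cebpd (ENSMUSG00000071637) encode CCAAT/enhancer binding proteins, which act early after hormone and in acute inflammation. Cebpb was lowest at 7.24, median 11.3 and highest at 23.4 CPM in air, and 7.69, 9.54 and 18.4 CPM in smoke. Its log2 fold change was −0.20 (SE 0.18, edgeR adjusted p = 0.655), and −0.060 without air replicate 5, −0.10 without air replicate 10 and −0.12 with the blood score as a covariate. All smoke samples of Cebpb lay inside the air range. Cebpd was lowest at 4.15, median 6.61 and highest at 23.2 CPM in air, and 4.46, 9.99 and 13.5 CPM in smoke. Its other 10 air samples ended at 9.22 CPM, below the smoke median. For Cebpd the difference was 0.22 on the log2 scale (SE 0.22, edgeR adjusted p = 0.70) with all samples and 0.52 (SE 0.18, edgeR adjusted p = 0.127) without air replicate 5. With the blood score as a covariate Cebpd stood at 0.46 (edgeR adjusted p = 0.509). Both genes overlap another gene on the opposite strand (Tmem189 and Spidr), so that their counts are uncertain to that extent.

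Sgk1 (ENSMUSG00000019970), whose promoter window holds the palindrome shown above, encodes a kinase that regulates ion channels and muscle mass. Its level was lowest at 20.5, median 25.4 and highest at 55.6 CPM in air, and 26.5, 35.8 and 50.0 CPM in smoke. All 13 smoke samples lay above the air median, yet air replicates 5 and 7 lay above every smoke sample, at 55.6 and 52.8 CPM. For Sgk1 the difference was 0.27 on the log2 scale (SE 0.15, 95% interval −0.029 to 0.57, edgeR adjusted p = 0.388) and 0.39 without air replicate 5 (edgeR adjusted p = 0.145).

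Ddit4 (ENSMUSG00000020108) encodes REDD1, an inhibitor of the growth kinase complex mTORC1 that rises with hormone, fasting and hypoxia. Its level was lowest at 11.7, median 21.2 and highest at 97.5 CPM in air, and 15.3, 24.8 and 39.0 CPM in smoke. The highest value was again air replicate 5, and the other air samples ended at 28.02 CPM. The log2 fold change was −0.15 (SE 0.23, edgeR adjusted p = 0.82) with all samples and 0.30 (SE 0.13, edgeR adjusted p = 0.262) without that sample, so that 1 library set its sign. DESeq2, which by default replaced the 379 counts of that library with 87, gave 0.27, and the fit with the blood score as a covariate gave 0.17. Ddit4 had the widest coefficient of variation of the 10, at 36.4%, which is at the 98.9th percentile of all tested genes. The SD of its log2 CPM in air was 0.75 with all samples and 0.34 without air replicate 5, then below those of Klf15 (0.66), Cebpb (0.48), Sgk1 (0.43), Cebpd (0.37) and Fkbp5 (0.36). The median coefficient of variation over the 10 was 21.8%, and 7 of 10 exceeded the median of all tested genes. These coefficients come from the fit that holds air replicate 5 and are not given without it. Without that sample the SD in air fell from 0.64 to 0.37 for Cebpd and rose from 0.64 to 0.66 for Klf15.

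Without air replicate 5, the fit of the other 23 samples again called 0 of the 10 genes, against 1.54% of its 10238 tested genes. At an unadjusted p under 0.05 there were 6 members, against 14.5% of tested genes, namely Klf9, Cebpd, Fkbp5, Sgk1, Zbtb16 and Ddit4. The median log2 fold change of the members was then 0.26, beside 0.0050 over all tested genes, with 6 positive and 4 negative. The sample was chosen after its values were seen, and its removal takes out the highest air value of 7 members.

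The excess in air replicate 5 differed in size between genes. Relative to the median of the other 10 air samples, it was 4.71-fold for Ddit4, 3.56-fold for Cebpd, 2.35-fold for Cebpb and 2.27-fold for Sgk1. It was 1.51-fold for Tsc22d3 and 1.49-fold for Klf9. Zbtb16 (1.30-fold), Klf15 (1.28-fold) and Nr3c1 (1.14-fold) were closer to the other air samples, and Fkbp5 was at 0.994-fold. The median deviation over the 10 genes was 0.58 on the log2 scale in this sample and between −0.31 and 0.30 in the other 23. Its library measures lay inside the range of the other air samples. Its total was 4037372 counts, it had 17201 genes with a count, the ribosomal-repeat gene Gm42418 took 12.6% of its counts and mitochondrial genes took 3.14%. Its Schwann cell genes (118 CPM) and neutrophil genes (4.63 CPM) summed to the lowest values of the air group, and its blood genes summed to 1269 CPM, within the air range of 486 to 1444. Their part in this excess was not tested.

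**Figure D3:**
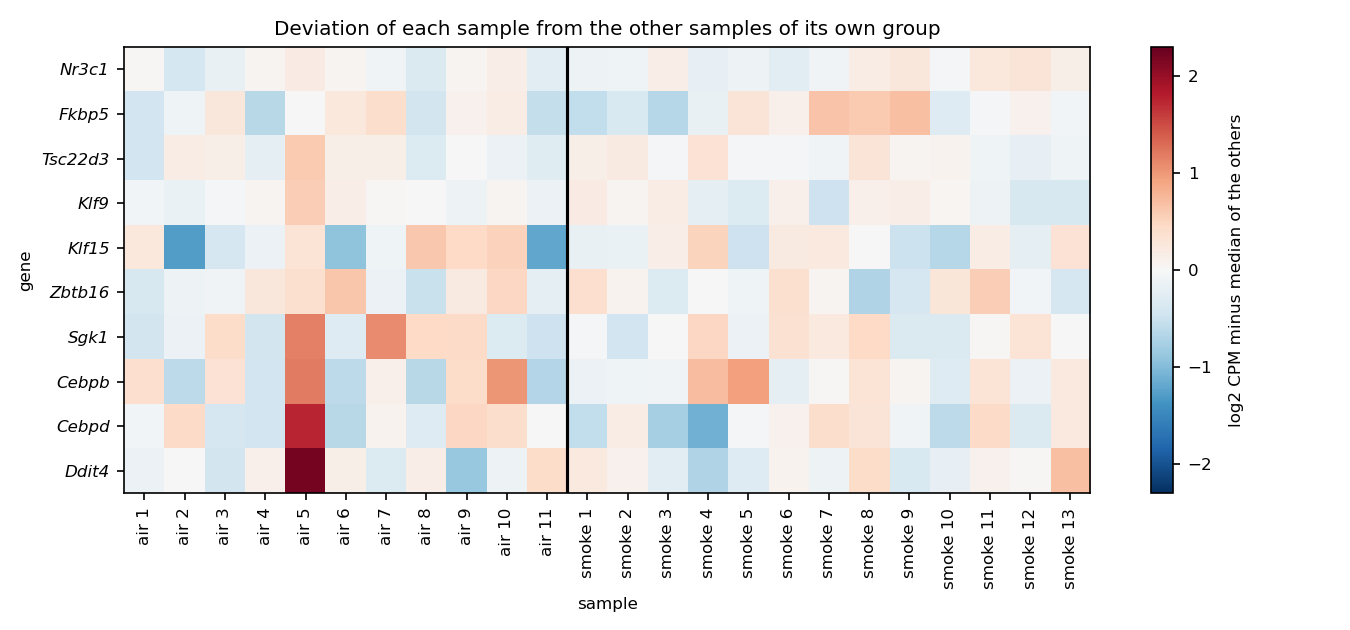
Difference in log2 CPM between each sample (columns) and the median of the other samples of its own group, for the 10 genes (rows). Red is higher and blue is lower, and air 5 is the column with the deepest red, up to 2.21 for Ddit4.

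Other genes of the pathway were read from 7 lists of 114 symbols, of which 95 genes were tested and 8 passed the test, 4 higher and 4 lower in smoke. The first list holds enzymes of hormone access and the chaperones that hold the receptor, of which 0 of 12 passed and 4 were under an unadjusted 0.05, with a median log2 fold change of −0.091. Its smallest p-values belonged to the chaperones Dnaja1, at −0.22 (SE 0.078, edgeR adjusted p = 0.146), and Hsp90aa1, at −0.25 (SE 0.097, edgeR adjusted p = 0.178). The 14 tested coregulators that the receptor recruits had a median of 0.065. Nr3c2, the mineralocorticoid receptor, and Hsd11b2, the enzyme that inactivates the hormone, did not pass the filter, with 98 and 3 counts over all samples.

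Of 20 other glucocorticoid-induced genes tested, 2 passed, both lower in smoke, and the list's median was 0.062. Pdk4, a kinase that shuts off pyruvate entry into mitochondria, fell by 1.14 on the log2 scale (SE 0.27, edgeR adjusted p = 0.0165), from a median of 5.55 to one of 3.07 CPM. All 13 smoke samples of Pdk4 lay below the air median and 4 below the lowest air sample. Counts of Pdk4 were low, from 1 to 36 per sample, and its lowest smoke value, 0.319 CPM, was under the floor of 3 counts. With the blood score as a covariate Pdk4 stood at −1.23 and was not called (edgeR adjusted p = 0.0731). Bcl6, a transcriptional repressor, fell by 0.31 on the log2 scale (SE 0.084, edgeR adjusted p = 0.0442), from a median of 64.7 to one of 55.5 CPM. Its call ended without any 1 of 13 samples (air replicates 3, 5, 6, 7 and 11, smoke replicates 1, 4 to 9 and 12), with adjusted p up to 0.0892. It also ended by limma voom, at −0.29 (adjusted p = 0.0667), with the replicate block, at −0.28 (0.0606), with the clock index, at −0.40 (0.12), and with the blood score, at −0.25 (0.292). The remaining 18 did not pass, 7 of the 20 being under an unadjusted 0.05.

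Of 17 muscle growth and atrophy genes, 0 passed by edgeR, 4 were under an unadjusted 0.05 and the median was −0.076. Trim63, the ubiquitin ligase MuRF1, stood at −0.33 in log2 fold change (SE 0.095, edgeR adjusted p = 0.0568), from a median of 166 to 137 CPM. Igf1, a growth factor, stood at 0.36 (SE 0.11, edgeR adjusted p = 0.0884), from a median of 14.1 to 20.1 CPM. Trim63 was called by DESeq2 (adjusted p = 0.0364), and by edgeR with no expression filter (0.02), with 1 surrogate variable (0.012) and in 6 of the 24 fits that left out 1 sample (without air replicate 2, 6 or 11, or smoke replicate 7, 8 or 11). Igf1 was called with the replicate block (edgeR adjusted p = 0.0392) and without air replicate 1 or smoke replicate 11. Air replicate 5 held the highest air value of Trim63 (262 CPM) and the lowest of Igf1 (10.0 CPM). Among inflammatory genes that the receptor represses, 4 of 12 could be tested and 0 passed, with 1 under an unadjusted 0.05 and a median of 0.067. Jun was at −0.37 (SE 0.11, edgeR adjusted p = 0.0784), and was called with no expression filter (0.0235), with 1 surrogate variable (0.0375) and without air replicate 11 or smoke replicate 4, while Nfkb1 was at 0.31 (SE 0.19, edgeR adjusted p = 0.451). Tnf and Il6 had 3 counts each over all samples, so that a difference was not detectable at this depth.

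Of 14 paralogues of the members, 0 passed, 2 were under an unadjusted 0.05 and the median was 0.057. Ddit4l, the muscle-enriched relative of Ddit4, stood at −0.15 on the log2 scale (SE 0.055, edgeR adjusted p = 0.164). Tsc22d4 was at 0.23 (SE 0.11, edgeR adjusted p = 0.307).

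**Figure D4:**
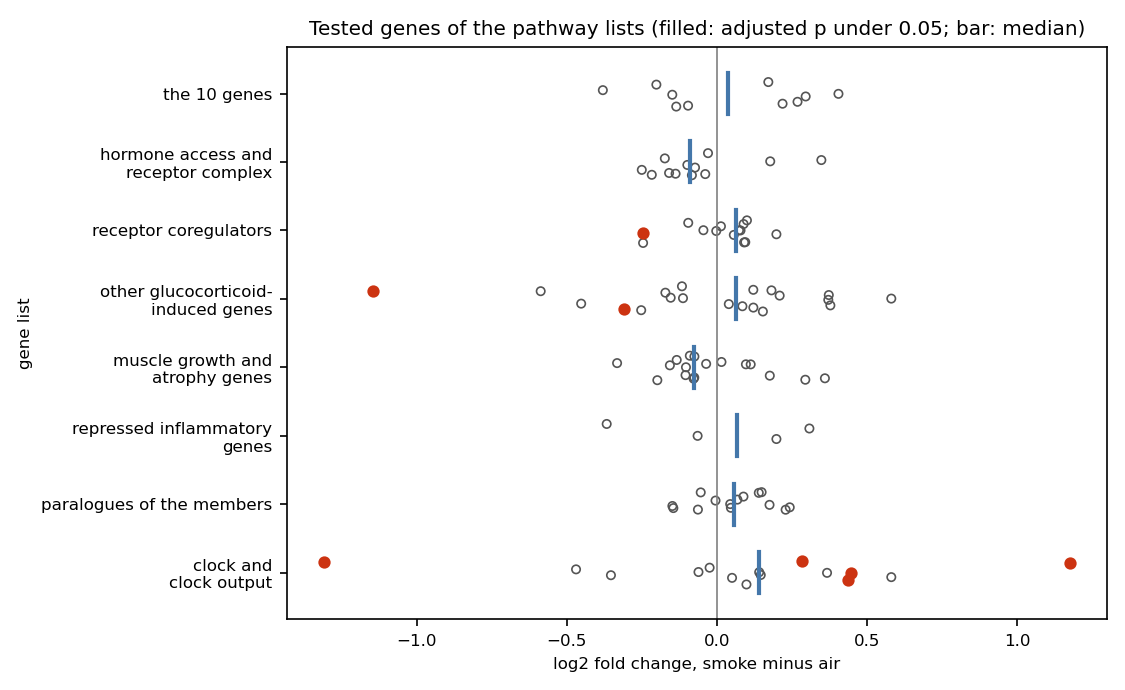
Log2 fold change of smoke against air (horizontal axis) for the tested genes of each list (vertical axis), with filled points for an adjusted p under 0.05 and a bar at the list's median. The 10 genes have 0 filled points, and the clock list has 5.

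Of 15 clock and clock output genes tested in the same comparison, 5 passed and 10 did not, and the list's median was 0.14. The output factor Dbp went from a median of 22.8 CPM in air to 57.1 in smoke (log2 fold change 1.18, SE 0.16, edgeR adjusted p = 4.87e-05). The repressor Nfil3, which opposes Dbp, went from 26.4 to 9.26 CPM (log2 fold change −1.31, SE 0.15, edgeR adjusted p = 1.31e-06). Bhlhe40 (0.44), Per3 (0.45) and Nr1d2 (0.28), repressors within the clock, also passed on the log2 scale given (edgeR adjusted p = 0.00105, 0.0172 and 0.0216). With the blood score as a covariate, Per3 stood at 0.42 (adjusted p = 0.134) and Nr1d2 at 0.21 (0.251), neither called. With the replicate number as a block Nr1d2 stood at 0.28 and was not called (adjusted p = 0.0831). A clock index, the mean log2 CPM of Dbp, Tef, Per3 and Nr1d2 minus that of Arntl, Clock and Nfil3, ran from 1.53 to 2.80 in air (median 2.16) and from 2.17 to 3.85 in smoke (median 3.37). Of its 7 genes, Dbp, Per3, Nr1d2 and Nfil3 were called here, and it holds none of the 10. The time of day of sampling is not given in the labels, and its part was not tested.

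With that index as a covariate, 0 of the 10 genes were called by edgeR, against 32 of all tested genes (0.315%). Tsc22d3 and Ddit4, 2 of the 10, were under an unadjusted 0.05, against 14.6% of all tested genes. Of the pathway lists 1 gene was then called, Nfil3, which is part of the index, and Pdk4 stood at −0.73 (edgeR adjusted p = 0.406). The log2 fold change of Klf9 was now −0.022, of Zbtb16 −0.040 and of Sgk1 0.055. These 3 had been at 0.17, −0.38 and 0.27 without it. Fkbp5 was at 0.35, Nr3c1 at −0.055 and Cebpd at 0.12. Klf15 (0.50), Tsc22d3 (−0.29) and Ddit4 (−0.69) were farther from 0 than without the index, and Cebpb changed sign to 0.14. All these values come from fits that hold air replicate 5, which had the highest level of Tsc22d3 and of Ddit4. They are not given without that sample. Since the index differs between groups, its standard errors were wider, 0.11 against 0.077 for Klf9. Within groups, the index was set against each of the 10 genes in 20 relations, and 0 passed a permutation test with Benjamini-Hochberg adjustment (smallest adjusted p = 0.489).

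The 10 genes were also compared with each other over samples, within each group, in 90 relations between pairs. By permutation tests of Pearson's r with 100000 resamples, 0 of 90 passed the Benjamini-Hochberg adjustment (smallest adjusted p = 0.31). In air, 41 of 45 pairs had a positive r, with a median of 0.44, and 9 were under an unadjusted 0.05. Without air replicate 5, 29 of 45 were positive, the median was 0.12 and 3 were under 0.05, so that much of the shared movement in air rests on that sample. In smoke, 18 of 45 pairs were positive, the median was −0.044 and 3 were under 0.05.

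The 3 pairs with the smallest p in air were Cebpb with Cebpd, Nr3c1 with Cebpb, and Tsc22d3 with Sgk1. For Cebpb and Cebpd, r was 0.70 and rho 0.55 (permutation p = 0.0115 and 0.0822, adjusted p = 0.31 and 0.617), and leaving out the 2 most distant Cebpb values gave an r of 0.26. For Nr3c1 and Cebpb, r was 0.72 and rho 0.69 (permutation p = 0.0134 and 0.0228, adjusted p = 0.31 and 0.514), and leaving out the 2 most distant Nr3c1 values gave 0.65. For Tsc22d3 and Sgk1, r was 0.69 and rho 0.57 (permutation p = 0.0176 and 0.0703, adjusted p = 0.31 and 0.617), and leaving out the 2 most distant Tsc22d3 values gave 0.36. The Cebpb with Cebpd and Tsc22d3 with Sgk1 relations rest on the samples left out, since r was 0.45 in both without air replicate 5, while Nr3c1 with Cebpb stood at 0.64. Of the 9 air pairs that hold Ddit4, 1 had a negative r with all samples and 8 without air replicate 5, and the largest r in air, 0.85 between Klf9 and Ddit4, became 0.17.

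In smoke the 3 pairs with the smallest p were Klf15 with Sgk1, Fkbp5 with Cebpd, and Cebpd with Ddit4. For Klf15 and Sgk1, r was 0.66 and rho 0.64 (permutation p = 0.0152 and 0.0212, adjusted p = 0.31 and 0.514), and leaving out the 2 most distant Klf15 values gave 0.46. For Fkbp5 and Cebpd, r was 0.59 and rho 0.51 (permutation p = 0.0339 and 0.0776, adjusted p = 0.31 and 0.617), and the same step for Fkbp5 gave 0.57. For Cebpd and Ddit4, r was 0.58 and rho 0.59 (permutation p = 0.0379 and 0.0363, adjusted p = 0.31 and 0.617), and the same step for Cebpd gave 0.24. In air the same pairs stood at 0.38, 0.16 and 0.66 with all samples and at 0.32, 0.17 and −0.39 without air replicate 5, so that the sign for Cebpd and Ddit4 rests on that sample. Whether the groups differ in r was not tested.

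**Figure D5:**
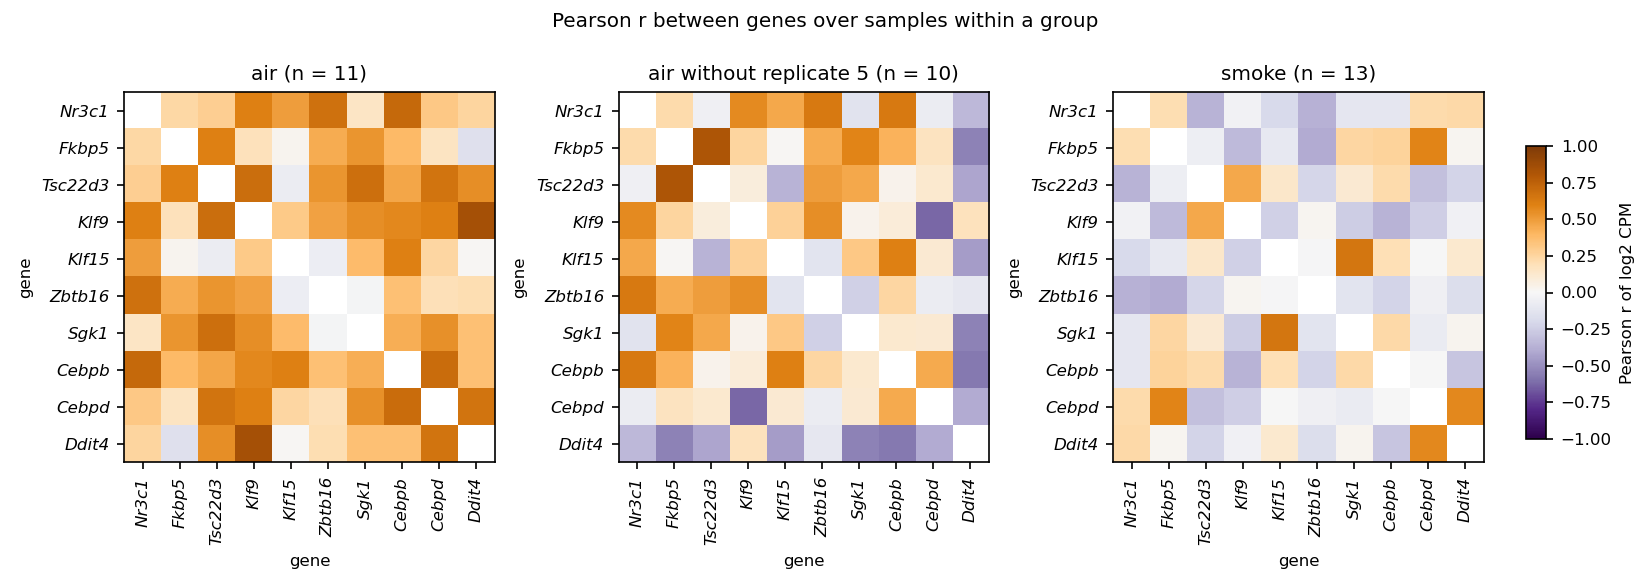
Pearson's r of log2 CPM between each pair of the 10 genes (rows and columns) in air, in air without replicate 5 and in smoke, with orange positive and purple negative. The air panel is mostly orange (41 of 45 pairs positive) and loses much of that colour without replicate 5 (29 of 45).

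For each of the 10, the gene with the most similar pattern over the 24 samples, after the group means were taken off, is given as a description. Klf9 was most like the nuclear non-coding RNA Malat1 (r 0.86, rho 0.92), and this stood at 0.90 over 23 samples without air replicate 5. Klf15 was most like Fut8 (r 0.82 and 0.81 without that sample), and Fkbp5 was most like Dpp8 (0.77 and 0.78). Zbtb16 was most like Dusp27 (0.66 and 0.70), Nr3c1 like Wdr20 (0.71 and 0.72) and Cebpb like Ubl3 (0.77 and 0.73). Sgk1 was most like Mylk4 (0.71 and 0.60), Cebpd like Acvr1b (0.70 and 0.56) and Tsc22d3 like Slc38a2 (0.69 and 0.50). Ddit4 was most like Depp1 (r 0.76, rho 0.47), which stood at 0.37 without air replicate 5. Without air replicate 5 the most similar gene was another one for 6 of the 10, namely Fam49b for Nr3c1 (0.79), Garnl3 for Tsc22d3 (0.71), Rbx1 for Sgk1 (0.72), Etfa for Cebpb (0.85), Rps2 for Cebpd (0.72) and Mapk8ip3 for Ddit4 (0.77). These partners were the highest of all other tested genes, and the values share library and depth.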

How the data were processed

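RNA of plantaris muscle was made into Lexogen QuantSeq 3′ forward libraries and read on an Illumina HiSeq instrument, per the labels' protocols. The file deposited by the authors holds unnormalized whole-number counts for each Ensembl gene in each sample. STAR, DESeq2 and the mouse build mm9 are named in the submitters' processing notes, without their roles. The counting tool, the annotation, strand use and any removal of PCR copies are not given in the sources used here. Per the file headers all samples were read on lane 6. Sample titles gave the groups and the replicate numbers.

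Symbols came from the GENCODE M21 annotation, which held 47224 of 47643 IDs. That annotation is of another build (GRCm38) than mm9, so the only coordinates printed are those of RefSeq promoter windows on GRCm38.p6, which were not set against the counts by position. The 10 members and the pathway and marker lists were chosen with earlier results of these data known.

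The test across genes used edgeR 4.0.16 (R 4.3.3). The filter was filterByExpr by group with a minimum count of 10, scaling was TMM, and smoke was tested against air on all 24 samples with glmQLFit and glmQLFTest. P-values were adjusted by Benjamini-Hochberg over all 10159 tested genes and called under 0.05. Correlations and spread used log2 CPM (prior count 2) and two-sided permutation tests with 100000 resamples. On simulated counts with 200 changed genes the fit called 172 genes, 163 of them changed, which is 96% of the 2-fold and 67% of the 1.5-fold changes. It called 0 where nothing was changed.

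Named were all 10 members, every called gene of the pathway lists, the 2 genes with the smallest p in each list without a call, the most similar gene of each member, and the 3 pairs with the smallest p in each group. Other genes were named after their values were seen. Of the called pathway genes, 1 is not reported here.

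Alternatives were upper-quartile and RLE scaling, limma voom 3.58.1, DESeq2 1.42.0, other filters, a replicate block, 1 surrogate variable (sva 3.50.0), a clock index, a blood score, an adjusted p under 0.10 and leaving out each sample. The pair and spread tests without air replicate 5 were added after the data were seen. No samples were merged, since chi-square per gene over 133 within-group pairs was 2.31 to 15.5.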

Additional observations from a re-analysis of the deposited data

How the results depend on the processing

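Across the alternatives run, 0 of the 10 genes were called in every fit, the 24 fits that left out 1 sample and the looser threshold included. The adjusted p came nearest for Fkbp5 (0.0501) among the settings other than single samples, and for Zbtb16 (0.055) among the fits without 1 sample. Pairs of members and differences in spread gave 0 passing results under each setting run. Signs of the members' log2 fold changes held in all but 1 of 240 comparisons that left out 1 sample and in 103 of 108 others. The 108 include the 10 values at the looser threshold, which are those of the main fit, so that their signs could not differ.

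The exceptions were Ddit4 (0.27 by DESeq2, 0.080 by limma voom, 0.17 with the blood score, and −0.24 to 0.30 over the fits without 1 sample), Klf9 (−0.022 with the clock index) and Cebpb (0.14 with the clock index). For Ddit4 the positive end came from leaving out air replicate 5, and the cause of the others was not tested.

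The 195 calls over all genes became 318 by DESeq2, 436 with 1 surrogate variable, 413 at an adjusted p under 0.10, 32 with the clock index, 56 with the blood score and 141 to 254 without 1 sample. The 8 pathway calls became 12 with 1 surrogate variable, 11 at an adjusted p under 0.10, 1 with the clock index, 3 with the blood score and 7 to 10 without 1 sample. The causes were not tested.

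With the replicate number as a block, 0 members, 139 of all genes and 6 pathway genes were called, and Tsc22d3 stood at −0.089, Cebpb at −0.12 and Ddit4 at −0.0066. Same-numbered samples did not deviate together on average (mean r −0.0059 over 11 pairs, lowest −0.28, beside 0.0011 over 132 other pairs). Whether they share more than a number cannot be told from these values. Low counts limit Klf15, with 5 to 30 counts per sample. A stricter filter left no value for the members under it.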

Other observations

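In air replicate 5 the genes farthest from the median of the other air samples were read after the values were seen. Of the 10 farthest above, 2 were members of the set (Ddit4 and Cebpd). Otud1 stood at 51.7 CPM against a median of 7.45 in the other air samples, and Per1, a clock gene that glucocorticoids induce, at 50.4 CPM against 8.41. Arrdc2 was at 34.0 CPM against 6.24, Slc25a25 at 44.8 against 9.13, Chac1 at 45.8 against 10.3 and Depp1 at 78.5 against 18.6. Each of these lay above the highest of the other 10 air samples. Of the 20 other glucocorticoid-induced genes tested, 7 (35%) were highest of all 24 samples in this sample, beside 4.27% of all tested genes. The share was 4 of 15 in the clock list, which also holds Per1, 3 of 14 each among coregulators and paralogues of the members, 1 of 4 among repressed inflammatory genes, 2 of 17 among growth and atrophy genes and 0 of 12 in the list of hormone access. The 7 glucocorticoid-induced genes were Per1, Dusp1, Pdk4, Irs2, Glul, Arrdc2 and Cd163. Over that list the median deviation from the other air samples was 0.30 on the log2 scale. Some of its genes lay lower in this sample, such as Rgs2 (−0.27) and Mt2 (−0.25). The 1 repressed inflammatory gene was Jun, at 173 CPM, and the paralogues included Klf4 and Klf6. Dusp1, a phosphatase that shuts off stress kinases, was at 139 CPM, and Irs2, an insulin receptor adaptor, at 41.2 CPM.

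Among the genes farthest below in that sample, the clock repressor Nr1d1 stood at 3.34 CPM, while the other 10 air samples lay between 13.2 and 22.2 CPM. Pim1 was at 0.515 CPM against 2.20 to 6.57, and Cpt1a, the gate of fatty acid entry into mitochondria, at 0.257 CPM against 1.21 to 4.72, both under the floor of 3 counts in this sample. The clock index of the sample was 2.56, inside the range of the other air samples. Of the genes in the index, Dbp (39.6 CPM), Nr1d2 (99.3 CPM) and Nfil3 (36.3 CPM) each had their highest air value in this sample. Nfil3 enters the index with the opposite sign, so that the index can hide such values. What sets this sample apart was not tested.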
